A study of Mus musculus with 6 samples.

Results

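The insulin and insulin-like growth factor (IGF) genes described here are the receptors Insr, Igf1r and Igf2r, the adaptors Irs1 and Irs2, the ligands Igf1 and Igf2, and the binding proteins Igfbp3, Igfbp4 and Igfbp7. They were chosen by gene name and are 10 of the 55487 genes listed in the table. RNA was measured in GFP and tdTomato double-positive cells sorted from retinas of P7.5 mouse pups. The paper takes these cells as vascular endothelial cells (VECs). The animals of the 3 control libraries carried tdTomato FL/+ and Pdgf-icreER, and those of the 3 Bmal1;CKO libraries carried both of these and Bmal1 FL/FL. Both genotypes carried the tamoxifen-inducible Cre, which is driven by a Pdgf promoter and brings GFP, and the tdTomato reporter, and both received tamoxifen between P0.5 and P2.5. The controls carried no floxed Bmal1 allele, so the floxed allele and its deletion cannot be told apart. The retinas were collected at a single time of day.

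Insulin and the IGFs bind receptor tyrosine kinases at the cell surface, which phosphorylate IRS adaptors and so start the PI3K-AKT-mTOR and RAS-ERK cascades. IGF binding proteins hold IGFs outside the cell and set how much ligand reaches the receptors, and AKT keeps FOXO transcription factors out of the nucleus. In the growing retina, endothelial cells respond to both ligands, and IGF-1 is known as a factor that retinal vessel growth needs.

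The libraries held 71145068 to 104017800 reads on genes. Arntl, which encodes BMAL1, had normalized counts of 1700, 3489 and 2928 in control libraries 1 to 3 and 1779, 2747 and 2415 in Bmal1;CKO libraries 4 to 6. The groups overlapped (log2 fold change -0.19, SE 0.36, limma-trend adjusted p = 0.924), so the count over the whole gene does not separate the genotypes. By ddPCR, a separate assay, the paper reports a significantly lower Bmal1 transcript level in sorted cells of the mutant genotype. The table has 1 value per gene, and the floxed exon was not analysed here. Directions below are therefore those of the libraries labelled Bmal1;CKO against the libraries labelled control. The 12 endothelial markers, among them Cldn5, Pecam1 and Cdh5, summed to 172212 to 343228 in control and 104237 to 219860 in Bmal1;CKO, and 11 of the 12 had a log2 fold change below 0. The 9 microglia and macrophage markers, such as C1qa, Csf1r and Cx3cr1, were not at 0 in any library and summed to 1386183 to 4103347 in control and 2013410 to 3985845 in Bmal1;CKO, and 8 of the 9 had a log2 fold change above 0 (median 0.40). The 8 rod markers summed to 444024 to 707826 over the 6 libraries. The median marker was at 2841 to 9109 for endothelial cells, 55378 to 118104 for microglia and macrophages and 37005 to 80002 for rods. In every library the endothelial median was below those of microglia and macrophages and of rods. Control libraries 1 and 3 stood apart. The cone markers summed to 5267 in library 1, against 23455 to 28845 in the others. The pericyte and mural markers summed to 46190 in library 3, against 2640 (library 1) to 7643 in the others, and library 3 was also highest in erythroid (19008), retinal astrocyte (6610) and fibroblast and meningeal (2757) markers. The level of a gene in such a mixture does not tell fewer cells of a type from less RNA per cell.

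Among these genes, the clearest difference between the genotypes lay in Irs2, the adaptor that was higher in each of the 3 Bmal1;CKO libraries than in any control library. None of the 10 genes passed the test after adjustment over all genes. The test needed 10 reads or more in 3 of the libraries, which 20459 genes reached, 9 of these 10 among them. Irs1 did not reach it. At an adjusted p under 0.05 the limma-trend fit called 0 of the 20459 genes (0%), edgeR 0, limma-voom 0 and DESeq2 67 (0.327%), and at an unadjusted p under 0.05 they called 1007 (4.92%), 777 (3.8%), 996 (4.87%) and 1211 (5.92%). By limma-trend, 1 of the 9 tested genes, Irs2, had an unadjusted p under 0.05, where 3.17% of all genes tested were higher and 1.75% lower at that p. Irs2 was also the 1 gene of the 9 whose groups did not overlap, where 11.2% of all genes tested did not (6.62% higher and 4.54% lower). Of the 9 genes, 5 had a log2 fold change above 0 and 4 below 0, and 56.6% of all genes tested lay above 0. The median log2 fold change of all genes tested was 0.11 by limma-trend and -0.03 by edgeR, and the values below are to be read against it.

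**Figure D1:**
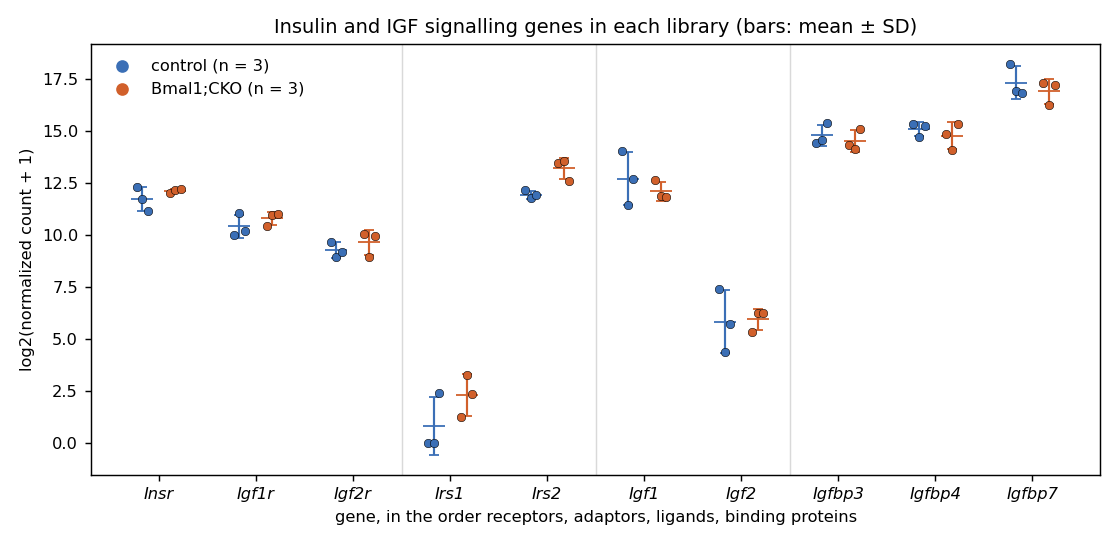
Log2(normalized count + 1) of the 10 genes in each of the 3 control and 3 Bmal1;CKO libraries, with the mean ± SD of each group. The 3 Bmal1;CKO values of Irs2 lie above its 3 control values, and Irs1 is the lowest of the 10 genes in every library.

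Levels were compared between genes per kilobase of exon, as the median of 6 libraries. Igfbp7 was the most abundant of the 10 by this measure, at 113493 normalized counts per kilobase. Igfbp4 (7766) and Igfbp3 (7379) followed, with ranges that overlapped each other but not those of Igfbp7 or Irs2. Irs2 (852), Igf1 (510) and Insr (321) came next, and each overlapped its neighbour in this order. Igf1r (102) and Igf2r (75.2) were lower and overlapped each other. Igf2 (11.0) and Irs1 (0.302) were lowest, and neither overlapped its neighbour above.

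The groups overlapped for each of the receptor genes. Insr encodes the insulin receptor (8:3122061-3279617 on the minus strand, GRCm38). Its normalized counts were 5002, 3379 and 2299 in control and 4187, 4642 and 4696 in Bmal1;CKO. The Bmal1;CKO values lay close together and inside the wider control range. The means were 3560 ± 1360 and 4508 ± 280 (SD, n = 3), and the log2 fold change was 0.41 (SE 0.32, 95% interval -0.34 to 1.16, limma-trend adjusted p = 0.883). Igf1r encodes the receptor that IGF-1 binds with high affinity (7:67952827-68233668, plus strand), and its counts were 1026, 2119 and 1153 in control and 1398, 2024 and 2032 in Bmal1;CKO. Control library 2 was the highest of the 6, so the groups overlapped. The log2 fold change was 0.40 (SE 0.38, 95% interval -0.49 to 1.28, limma-trend adjusted p = 0.883), and 0.72 without control library 2. Igf2r encodes the receptor that carries IGF-2 to lysosomes and does not signal as a kinase (17:12682406-12769664, minus strand). Its counts were 818, 496 and 581 in control and 1049, 493 and 993 in Bmal1;CKO. Libraries 4 and 6 were the highest and library 5 the lowest of the 6, and the log2 fold change was 0.37 (SE 0.46, 95% interval -0.70 to 1.45, limma-trend adjusted p = 0.895). Airn, an antisense transcript, overlaps Igf2r on the other strand, although none of the annotated exon bases are shared.

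Per kilobase, Insr exceeded Igf1r in every library. The ratio was 5.95, 1.95 and 2.44 in control and 3.66, 2.80 and 2.82 in Bmal1;CKO. These overlapped (two-sided exact permutation test, p = 1.0). With 3 libraries a group this test cannot give a p below 0.1.

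The adaptor genes differed from each other in level and in the comparison. Irs2 encodes an adaptor that the insulin and IGF-1 receptors phosphorylate, and it lies at 8:10984681-11008458 on the minus strand, with 2.56% of its exon bases shared with 9530052E02Rik on the other strand. Its normalized counts were 4533, 3475 and 3868 in control and 11191, 11851 and 6242 in Bmal1;CKO. Libraries 4 and 5 were well above library 6, yet library 6, the lowest Bmal1;CKO library, still had 1.38 times the count of the highest control library. The means were 3959 ± 535 and 9761 ± 3066 (SD, n = 3). The log2 fold change was 1.25 (SE 0.31, 95% interval 0.53 to 1.97), a fold of 2.39 (1.45 to 3.93). The unadjusted p of limma-trend was 0.00406 and 96 tested genes had a smaller one, and the adjusted p was 0.857. The exact permutation test gave p = 0.1, the smallest that it can give here. Over the 18 other settings tried the log2 fold change was 0.94 to 1.76 and the adjusted p 0.0633 (DESeq2) to 1.00. Relative to Insr within each library, Irs2 per kilobase was 1.97, 2.24 and 3.66 in control and 5.81, 5.55 and 2.89 in Bmal1;CKO. On this ratio the groups overlapped, since library 6 was below control library 3 (exact permutation test, p = 0.2).

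Irs1, the other main IRS adaptor (1:82233101-82291416, minus strand), was nearly absent. It had 0, 0 and 6 reads in control and 1, 10 and 5 in Bmal1;CKO, and a count of 0 allows up to 3 reads. At this depth no difference was detectable (exact permutation test on normalized counts, p = 0.3). Gm9747 on the other strand shares 30.9% of the exon bases of Irs1.

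BMAL1 with its partner CLOCK binds E-box elements, of which CACGTG is the canonical form. The 250 bases before the RefSeq start sites (GRCm38.p6) were therefore searched for it, and the same letters read on both strands. RefSeq promoters were matched for 9 of the 10 genes, 12 promoters in all. No promoter was matched for Insr, which was therefore not searched. CACGTG was found before Irs2 (1 match, 44 bases before the start), Irs1 (1 match, 115 bases) and Igf2r (2 matches, 48 and 7 bases), and 6.02% of the 32851 promoters hold it. The FOXO element GTAAACA, held by 3.17% of promoters, and the cyclic AMP response element TGACGTCA, held by 1.55%, were in none of the 12. The half-site TGACG of that element, which 17.8% of promoters hold, was found before Igf2r (2 matches), Irs1 (1) and in 1 promoter of Igf2 (1), and 1 match in Igf2r and that in Irs1 overlap CACGTG. The 3 promoters with CACGTG are given 5′ to 3′ because they include that of the gene with the largest difference, with the matches in capitals. They are chr8:11008930-11009179, chr1:82291440-82291689 and chr17:12769707-12769956, all on the minus strand.
Irs2: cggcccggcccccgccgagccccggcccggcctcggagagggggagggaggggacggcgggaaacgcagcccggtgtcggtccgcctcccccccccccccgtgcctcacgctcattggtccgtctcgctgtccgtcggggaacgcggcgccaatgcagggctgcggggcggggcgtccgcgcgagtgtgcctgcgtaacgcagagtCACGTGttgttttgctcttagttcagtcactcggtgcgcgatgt
Irs1: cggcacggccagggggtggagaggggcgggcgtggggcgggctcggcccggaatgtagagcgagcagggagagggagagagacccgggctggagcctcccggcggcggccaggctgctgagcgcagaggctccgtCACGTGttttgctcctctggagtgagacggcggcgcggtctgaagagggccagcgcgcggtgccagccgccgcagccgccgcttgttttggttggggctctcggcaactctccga
Igf2r: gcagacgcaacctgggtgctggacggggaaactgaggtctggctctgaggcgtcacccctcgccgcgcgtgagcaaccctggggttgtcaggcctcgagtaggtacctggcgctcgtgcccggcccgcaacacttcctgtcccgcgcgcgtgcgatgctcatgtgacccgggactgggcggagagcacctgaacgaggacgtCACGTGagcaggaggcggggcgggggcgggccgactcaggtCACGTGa
The matches are a description of these letters. Of the 3 genes, Irs2 had groups that did not overlap, Igf2r had groups that did, and Irs1 had too few reads to be tested.

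The ligand genes varied widely between the control libraries. Igf1 encodes IGF-1 (10:87858265-87937042, plus strand), and its normalized counts were 16641, 2788 and 6551 in control and 6392, 3713 and 3572 in Bmal1;CKO. Control library 1 had the highest count and control library 2 the lowest. The log2 fold change was -0.61 (SE 0.61, 95% interval -2.03 to 0.81, limma-trend adjusted p = 0.884), and 0.040 without control library 1. The 8 axon-tract and phagocytic microglia markers, which include Spp1, Gpnmb and Clec7a, summed to 16778732, 4251627 and 4294546 in control and 13645220, 11990992 and 7401078 in Bmal1;CKO, and none was at 0 in any library. The median of these markers was 15345, 3200 and 8753 in control and 8050, 6587 and 4571 in Bmal1;CKO. By this median, though not by the sum, the libraries rank as they do for Igf1. The part of these markers in the level of Igf1 was not tested.

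Igf2 encodes IGF-2 (7:142650766-142666816, minus strand, 29.4 Mb from Bmal1) and is imprinted, being expressed from the paternal allele in most tissues. It had 137, 21 and 73 reads in control and 28, 86 and 91 in Bmal1;CKO, or normalized counts of 169, 19.5 and 52.2 and of 39.4, 74.3 and 75.0. Control libraries 1 and 2 were the highest and the lowest of the 6. The log2 fold change of 0.11 (SE 1.05, 95% interval -2.34 to 2.56, limma-trend adjusted p = 0.989) had an interval wide enough to hold a large difference in either direction, and it was -0.34 by edgeR and by DESeq2. Other annotated genes, among them Gm49394 on the same strand, share 64.5% of its exon bases, so its count is uncertain. Over the 6 libraries, the tested genes whose centred log2 values were nearest to those of Igf2 were Bcl6 (mean absolute difference 0.16), Parp16 (0.18) and Gm49172 (0.21), of 20458 genes compared.

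The binding proteins were the most abundant products of the group. Igfbp3 encodes the main IGF carrier of plasma (11:7206086-7213923, minus strand), and its normalized counts were 21812, 24379 and 42392 in control and 20214, 17698 and 35054 in Bmal1;CKO. In each group 1 library, 3 or 6, was above the rest, and the groups overlapped. The log2 fold change was -0.28 (SE 0.37, 95% interval -1.15 to 0.58, limma-trend adjusted p = 0.899), and 0.011 without control library 3. That library had the highest summed pericyte and mural markers. Library 6, at 6933, was below control library 2 (7182) and Bmal1;CKO library 4 (7643) in these markers. Their part in the level of Igfbp3 was not tested. Igfbp4 (11:99041244-99054392, plus strand), a binding protein that the protease PAPP-A cleaves, had counts of 41148, 27176 and 38846 in control and 29744, 17457 and 41981 in Bmal1;CKO. The highest and the lowest of the 6 were both Bmal1;CKO libraries, and the log2 fold change was -0.33 (SE 0.37, 95% interval -1.19 to 0.53, limma-trend adjusted p = 0.888). Igfbp7 (5:77349240-77408041, minus strand) encodes a secreted matrix protein that binds IGFs weakly and is abundant in vessel walls. Its counts were 309616, 122647 and 116512 in control and 163678, 76875 and 151779 in Bmal1;CKO. Control library 1 was the highest and library 5 the lowest, and the other 4 lay between 116512 and 163678. The log2 fold change was -0.40 (SE 0.51, 95% interval -1.59 to 0.78, limma-trend adjusted p = 0.895), and 0.054 without control library 1. Control library 1 also had the highest summed endothelial markers, 343228, and library 5 the lowest, 104237. The part of the endothelial share in these values was not tested. When the libraries were scaled to the mean of the endothelial markers, the log2 fold changes of Igfbp3, Igfbp4 and Igfbp7 were 0.12, 0.068 and -0.0042, and the median of all genes tested moved from 0.11 to 0.49. Scaling to the median of the same markers, tried afterwards, gave 0.22, 0.17 and 0.10, with a median of all genes of 0.60. The 3 genes lay below the median of all genes without the scaling. It shifts the log2 fold change of every gene by nearly the same amount and so could hardly change that.

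**Figure D2:**
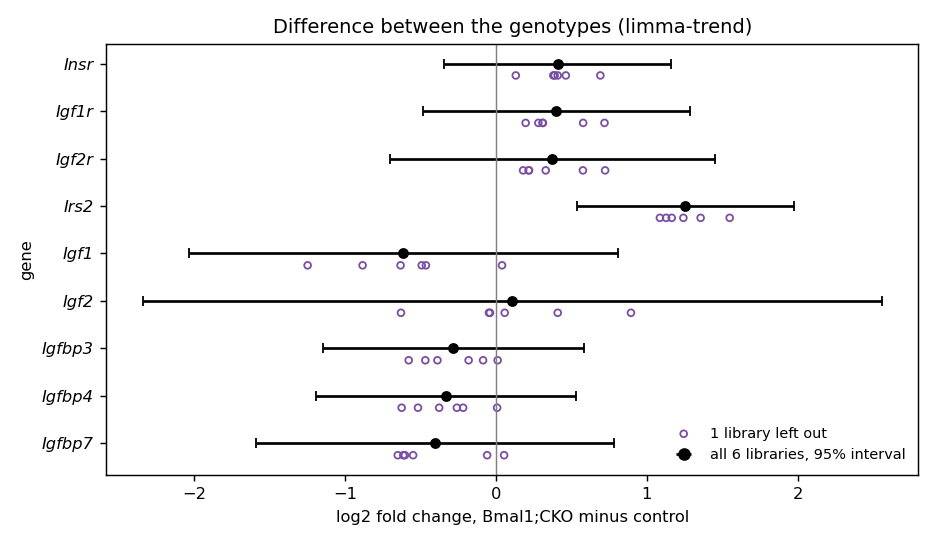
Log2 fold change (Bmal1;CKO minus control, limma-trend) of the 9 tested genes with its 95% interval, and open circles for the fits that leave out 1 library each. The interval of Irs2 lies above 0 and those of the other 8 genes include 0.

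**Figure D3:**
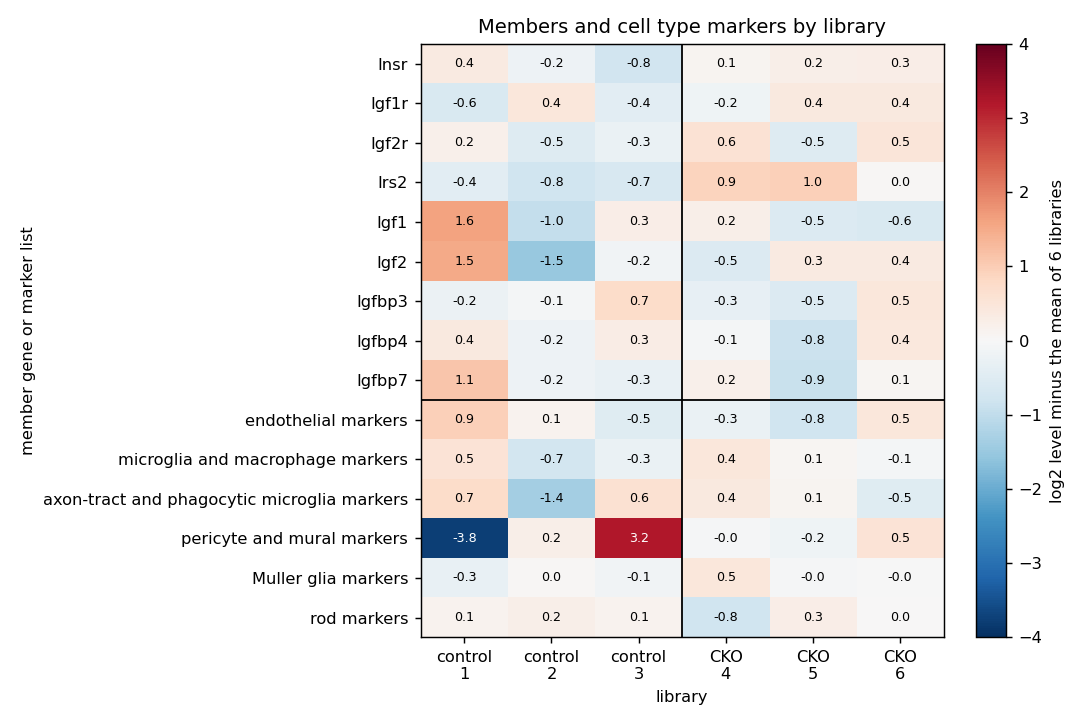
Log2 level of each tested gene, and the mean log2 level of the tested markers of 6 cell types, minus its mean over the 6 libraries. Insr, Igf1, Igf2 and Igfbp7 are highest in control library 1. So are the endothelial, the microglia and macrophage, and the axon-tract and phagocytic microglia markers. Irs2 is lower in the 3 control libraries than in the 3 Bmal1;CKO libraries.

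The rest of the pathway was read from 12 lists of 105 other genes, of which 97 were tested. By limma-trend 0 of the 97 passed at an adjusted p under 0.05, and 8 had an unadjusted p under 0.05 (8.25%, 4 higher and 4 lower in Bmal1;CKO), where 4.92% of all genes tested did. The groups did not overlap for 10 of the 97 (10.3%), against 11.2% of all genes tested. The median log2 fold change of the 97 was 0.16, with 63 above 0 and 34 below (55 and 42 by edgeR, median 0.084). The count of 8 was 0 without Bmal1;CKO library 5 and 3 without library 4.

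Between IRS adaptors and AKT, Pik3r1, the regulatory subunit of PI3K that binds IRS proteins, had counts of 3742, 3880 and 3360 in control and 5084, 8662 and 5722 in Bmal1;CKO. The groups did not overlap, and library 5 was well above the others (log2 fold change 0.79, SE 0.28, limma-trend unadjusted p = 0.0223, adjusted p = 0.883). Of the 10 genes of the PI3K-AKT core, 7 lay above 0 and 3 below. Akt1 had a log2 fold change of 0.23 (SE 0.35).

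Among the 13 brakes on the receptor and PI3K, Tsc1, which with TSC2 holds back mTOR complex 1, had counts of 1015, 1035 and 1117 in control and 1851, 2195 and 2031 in Bmal1;CKO. Both groups were tight and did not overlap, with a log2 fold change of 0.94 (SE 0.28, limma-trend unadjusted p = 0.0111, adjusted p = 0.883). Grb14 and Grb10 encode adaptors that bind the activated insulin receptor and inhibit it. Grb14 had counts of 1697, 577 and 399 in control and 366, 129 and 247 in Bmal1;CKO, which did not overlap, and its log2 fold change was -1.69 (SE 0.71, limma-trend unadjusted p = 0.0455, adjusted p = 0.883). Grb10 had counts of 3101, 2296 and 1656 in control and 996, 987 and 1711 in Bmal1;CKO. Library 6 reached into the control range, and the log2 fold change was -0.94 (SE 0.38, limma-trend unadjusted p = 0.0395, adjusted p = 0.883).

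Downstream of AKT, Rheb, the small GTPase that activates mTOR complex 1, had counts of 7925, 8892 and 5376 in control and 4361, 4405 and 4308 in Bmal1;CKO. The Bmal1;CKO values were nearly equal and all below control (log2 fold change -0.73, SE 0.26, limma-trend unadjusted p = 0.0253, adjusted p = 0.883). Eif4ebp2, a repressor of cap-dependent translation that mTOR complex 1 phosphorylates, had counts of 2163, 1307 and 2832 in control and 3823, 3248 and 3793 in Bmal1;CKO, without overlap (log2 fold change 0.85, SE 0.34, limma-trend unadjusted p = 0.0372, adjusted p = 0.883). The 4 FOXO factor genes had limma-trend log2 fold changes of 0.13 to 2.57, with a smallest unadjusted p of 0.147, and by edgeR Foxo4 was -0.48 and 3 lay above 0. Of the 10 tested genes that FOXO factors activate, 7 lay above 0 and 3 below (6 and 4 by edgeR), and 0 had an unadjusted limma-trend p under 0.05. The same was so of the RAS-ERK branch, with 5 above and 5 below (4 and 6 by edgeR).

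**Figure D4:**
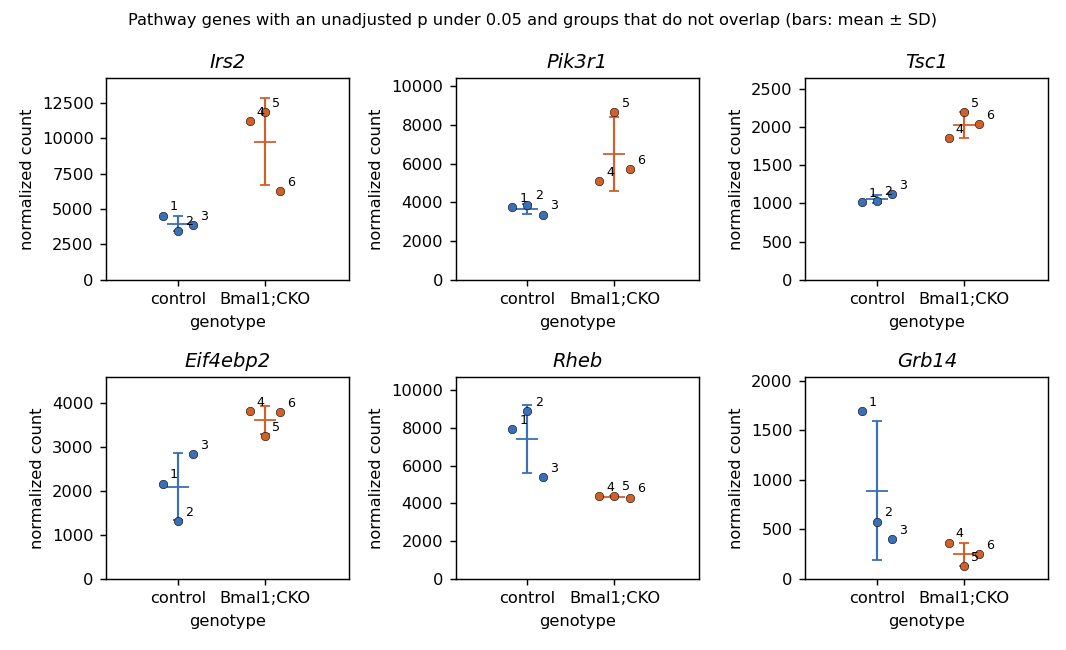
Normalized counts of Irs2 and of the 5 other pathway genes with an unadjusted limma-trend p under 0.05 and groups that do not overlap, by library number, with the mean ± SD (n = 3). Irs2, Pik3r1, Tsc1 and Eif4ebp2 are higher and Rheb and Grb14 lower in the Bmal1;CKO libraries.

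Of the 8 relatives of the ligands and binding proteins, 5 were tested. Igfbp2, a binding protein, had counts of 4327, 9077 and 6140 in control and 19287, 15048 and 8180 in Bmal1;CKO. Library 6 lay below control library 2, and the log2 fold change was 1.10 (SE 0.40, limma-trend unadjusted p = 0.0271, adjusted p = 0.883). Igfbpl1 had 1.23, 88.2 and 87.9 in control and 249, 243 and 269 in Bmal1;CKO. Its groups did not overlap, and its log2 fold change of 3.29 (SE 1.49, limma-trend adjusted p = 0.883) was 1.51 without control library 1, where it was nearly absent, and 2.09 by edgeR. Igfbp1 had 140, 27.8 and 18.6 against 0, 0 and 27.2, Igfbp5 had 1.23, 1297 and 292 against 477, 176 and 320, and Igfbp6 had 0, 0 and 67.9 against 25.3, 36.3 and 23.9. The groups of these 3 genes overlapped, and their fold changes depended on the test: Igfbp6 was 2.82 on the log2 scale by limma-trend and 0.30 by edgeR, and Igfbp5 1.67 and -0.71. The insulin genes Ins1 and Ins2 and the IGF carrier subunit Igfals were at 6.50 or less in every library and were not tested.

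Among the proteases that cut binding proteins and their inhibitors, Stc1, which encodes a secreted inhibitor of PAPP-A, had counts of 1099, 549 and 2093 in control and 283, 317 and 606 in Bmal1;CKO. Library 6 was above control library 2, and the log2 fold change was -1.51 (SE 0.60, limma-trend unadjusted p = 0.0371, adjusted p = 0.883). Stc2 (-0.13), Htra1 (0.30) and Pappa2 (-0.88) had log2 fold changes whose intervals included 0, and Pappa, with 0 to 13.0 normalized counts, was not tested. Of the 8 imprinted growth genes, H19, which neighbours Igf2, had counts of 456, 88.2 and 355 in control and 699, 561 and 414 in Bmal1;CKO. These overlapped (log2 fold change 1.16, SE 0.72, limma-trend adjusted p = 0.883). The log2 fold changes of Dlk1 (2.76), Plagl1 (1.11), Cdkn1c (0.15), Meg3 (0.0040), Mest (-0.12), Airn (-0.18) and Peg3 (-0.24) all had 95% intervals that included 0. By edgeR Dlk1 was -0.58 and Meg3 -0.28.

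**Figure D5:**
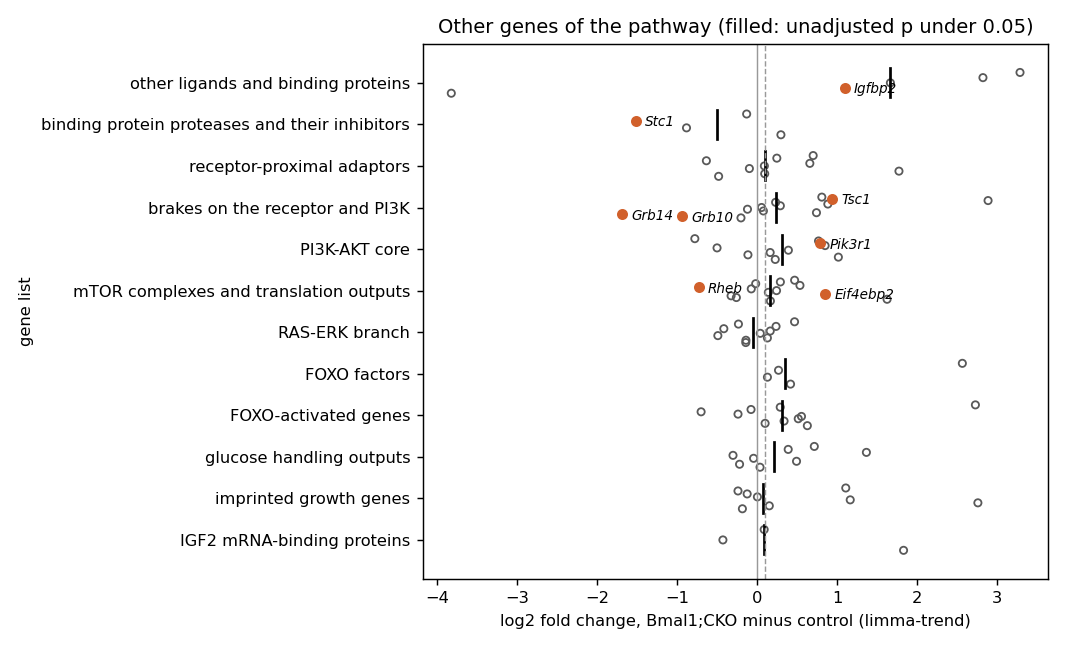
Log2 fold change (Bmal1;CKO minus control, limma-trend) of the 97 tested genes of 12 pathway lists. Filled points have an unadjusted p under 0.05, bars mark list medians and the dashed line marks the median of all genes tested, 0.11.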

How the data were processed

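RNA of the cells sorted as retinal VECs was measured in 3 control and 3 Bmal1;CKO libraries. After trimming with Trimmomatic, the authors mapped the reads by Bowtie to the mouse assembly GRCm38 (mm10), and featureCounts gave the count of each gene. The Bowtie version and the strand setting are not given in the sources used here, so reads of overlapping antisense genes cannot be told apart. The deposited values are a signal: counts that DESeq2 had scaled by size factors, here called normalized counts. The mean, log2 fold change, error and p-value columns of their own comparison were not used. Column names give the genotype, and their numbers run against those of the labels, so each column was used as a replicate of its genotype.

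Division by the smallest step gave whole reads for 100% of values (tolerance 0.01). Genes that reached 10 reads in 3 libraries or more were tested by limma-trend (limma 3.58.1, R 4.3.3) on log2(normalized count + 1). Genotype was the single term, with Benjamini-Hochberg adjustment over all 20459 genes. Fold changes are on that scale, on which a gene at or near 0 in some libraries can have a far larger value than by a count test, or one of the other sign. Alternatives were edgeR 4.0.16 quasi-likelihood, DESeq2 1.42.0, limma-voom, other pseudocounts and filters, each library left out, and scaling to marker lists. The scripts were tested on simulated counts with a single dispersion for all genes and with log2 changes larger than that of any member. That test does not cover differences of the size seen in the members. P-values set the difference between the groups against the spread between these libraries, which limma-trend moderates across genes. Because the libraries were amplified, counting limits cover counting error alone. Coordinates are those of GENCODE M21. The members and lists were chosen with earlier results of these data known. Named are all members, Arntl, the nearest gene families, pathway genes with an unadjusted p under 0.05 or with groups that do not overlap and an absolute log2 fold change over 1, and the 3 genes most like each tested member whose SD of log2 values is over 1. Akt1 was named in addition, after its value was seen.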

Additional observations from a re-analysis of the deposited data

How the results depend on the processing

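Across 18 alternatives, Irs2, Insr, Igf1r and Igf2r kept their direction in all 18, and 0 of the tested members passed an adjusted p of 0.05 in any. The read filters left the log2 fold changes of these 4 genes unchanged and the pseudocounts nearly so. Those settings therefore could not test the direction. Leaving out 1 library each gave 1.09 to 1.55 for Irs2, 0.13 (without control library 3) to 0.69 (without control library 1) for Insr, 0.20 (control library 1) to 0.72 (control library 2) for Igf1r and 0.18 (Bmal1;CKO library 4) to 0.72 (library 5) for Igf2r. Without control library 1, Insr had a limma adjusted p = 0.567. Igf2 was reversed in 8, with log2 fold changes of -0.34 by edgeR with TMM scaling, -0.35 by edgeR with the deposited size factors and -0.34 by DESeq2. The fits with 1 library left out gave -0.63 to 0.89 for Igf2 and -1.25 to 0.040 for Igf1. For the binding proteins they gave -0.58 to 0.011 (Igfbp3), -0.63 to 0.0075 (Igfbp4) and -0.65 to 0.054 (Igfbp7). Genes at an adjusted p under 0.05 numbered 0 by limma-trend, 67 by DESeq2, 1 with at least 1 read in total, 1 with at least 10 reads in every library and 0 to 6 with 1 library left out (6 without control library 1). Pathway genes at an unadjusted p under 0.05 numbered 8, and 0 to 12 with 1 library left out. Members whose groups do not overlap numbered 1, and 1 to 3 with 1 library left out (3 without control library 2), where smaller groups overlap less readily. The cause of the other changes was not tested.

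Scaling to cell type markers was added after seeing the data, first by the mean of a marker list. The median was added after the results of the mean had been seen, because the endothelial marker Slco1a4 is at 0 in 1 library, and both are given. By the mean and the median of the endothelial markers, Igfbp3 was 0.12 and 0.22, Igfbp4 0.068 and 0.17, and Igfbp7 -0.0042 and 0.10. Genes at an adjusted p under 0.05 numbered 1 and 1, pathway genes at an unadjusted p under 0.05 numbered 1 and 4, and members that do not overlap 1 and 3. By the mean of the endothelial markers the 1 member that did not overlap was Insr. Irs2 overlapped under that scaling, since Bmal1;CKO library 6 fell below control library 3. By the mean and the median of the microglia and macrophage markers, Igf2 was -0.18 and -0.19. The same counts were 1 and 1, 4 and 3, and 1 and 2. Under these scalings Irs2 was 0.95 and 0.94, Insr 0.11 and 0.10, Igf1r 0.095 and 0.089 and Igf2r 0.070 and 0.064. Under the endothelial scalings Irs2 was 1.65 and 1.76, Insr 0.81 and 0.91, Igf1r 0.80 and 0.90 and Igf2r 0.77 and 0.88. The median of all genes tested was 0.49 and 0.60 under the endothelial scalings and -0.20 under both others. By edgeR 8 of the 97 pathway genes differed in sign from limma-trend, and the median of the other ligands and binding proteins was 0.30 in place of 1.67. Of 234 list medians compared, 43 moved by more than the spread between libraries or, over all genes, by more than 0.1. No paired analysis was possible because the columns carry no replicate number that matches the labels. Irs1 has no fitted value.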
